A study of Mus musculus with 10 samples.

Results

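Accessible chromatin was described at 10 genes of the Polycomb repressive complexes, Ezh2, Eed, Suz12, Jarid2, Mtf2, Kdm2b, Cbx2, Cbx7, Rybp and Phc1, along the reprogramming of mouse fibroblasts to pluripotency. The overlapping ATAC-seq peaks of all 10 libraries were merged into 208851 regions, and a region was assigned to a gene when it overlapped the gene or the 20 kb on either side of it. This gave 143 regions, of which 26 lay within 1 kb of either end of a gene in the RefSeq gene table and 117 were distal. The rule that assigns regions to genes uses no measured level.

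Polycomb proteins keep developmental genes silent by modifying histones. Polycomb repressive complex 2 (PRC2) methylates lysine 27 of histone H3 through its catalytic subunit Ezh2, which needs Eed and Suz12, while Jarid2 and Mtf2 are accessory subunits that help to bring the complex to DNA. Polycomb repressive complex 1 (PRC1) ubiquitinates histone H2A. Its canonical forms hold a Cbx protein, such as Cbx2 or Cbx7, which reads the methylated lysine, and a Polyhomeotic protein such as Phc1, and its variant forms hold Rybp. Kdm2b binds unmethylated CpG islands and recruits one variant form to them. In embryonic stem cells these complexes hold lineage genes inactive.

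The fibroblasts (MEF) came from C57BL/6 x 129 mice with the genotype OKSM Col1a1/M2rtTA ROSA26, in which Oct4, Klf4, Sox2 and Myc, the factors that reprogram the cells, are read from a cassette in Col1a1 when the M2rtTA activator in Rosa26 meets doxycycline. MEF cells were unsorted and in MEF medium without doxycycline, and the DAY3, DAY6 and DAY9 cells had spent 3, 6 or 9 days in ESC medium with 1 ug/ml doxycycline and 50 ug/ml ascorbic acid. DAY3 cells were unsorted, and DAY6 and DAY9 cells were sorted for the surface marker SSEA1. The reference (ESC) was the embryonic stem cell line V6.5, of the same strain mix but without the cassette, unsorted and grown on irradiated feeder cells with 1000 U/ml LIF, which the ESC medium of the reprogrammed cells held as well. Sorting therefore goes with DAY6 and DAY9, and doxycycline and ascorbic acid go with DAY3 to DAY9. MEF medium goes with MEF, and the feeder cells and the lack of the cassette go with ESC. None of these can be told apart from the stage. All 10 libraries, 2 a stage from 50000 cells each, carry 1 batch name, and the design text calls the replicates biological.

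Each library had its own peak list, with 45497 to 88980 peaks that covered 27.7 to 53 Mb. The DAY3 lists were the shortest and the ESC lists the longest. Read totals are not given in the sources used here. The chromatin of marker genes went with the labels: 5 of 6 fibroblast markers had a peak at a gene end in both MEF libraries and 2 of 6 in both ESC libraries, and of 7 pluripotency markers 0 had one in MEF, 1 at DAY3, 4 at DAY6, 6 at DAY9 and 6 at ESC. Of 4 blood and endothelial markers Cd34 alone had one, at every stage. The cells were profiled in bulk, so fewer open cells and less opening per cell cannot be told apart.

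The start sites of the genes differ in how stable their chromatin was. RefSeq promoter windows, from 250 bases before to 50 bases after a start, were found for 8 of the 10 genes (13 windows, build GRCm38.p6, the assembly that mm10 names). Of these, 10 had a peak in every library and 2 had a peak in none, the internal start of Mtf2 and a further Kdm2b start just inside the upstream end. The 5 sequences below are the 250 bases upstream of starts of Kdm2b, Cbx7 and Mtf2, the genes whose starts or gene ends differed in opening. For Cbx7 the RefSeq promoters hold 1 start alone, inside the gene, and none at its upstream end. They run 5′ to 3′ in the direction of transcription, and capitals mark matches to GGGNGNGG, a KLF-type motif, on either strand, where matches may overlap. 
Kdm2b, upstream start, chr5:122989100-122989349, minus strand: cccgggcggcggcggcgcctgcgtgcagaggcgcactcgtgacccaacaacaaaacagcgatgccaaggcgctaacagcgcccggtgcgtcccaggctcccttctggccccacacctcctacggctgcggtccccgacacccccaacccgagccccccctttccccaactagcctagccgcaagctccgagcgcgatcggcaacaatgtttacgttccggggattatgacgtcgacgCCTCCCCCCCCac
Kdm2b, internal start, chr5:122900368-122900617, minus strand: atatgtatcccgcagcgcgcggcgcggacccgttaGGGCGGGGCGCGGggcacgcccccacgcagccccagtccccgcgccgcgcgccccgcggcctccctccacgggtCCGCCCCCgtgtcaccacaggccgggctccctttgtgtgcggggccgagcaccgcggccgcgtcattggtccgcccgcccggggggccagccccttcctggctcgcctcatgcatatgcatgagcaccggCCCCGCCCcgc
Cbx7, internal start, chr15:79932647-79932896, minus strand: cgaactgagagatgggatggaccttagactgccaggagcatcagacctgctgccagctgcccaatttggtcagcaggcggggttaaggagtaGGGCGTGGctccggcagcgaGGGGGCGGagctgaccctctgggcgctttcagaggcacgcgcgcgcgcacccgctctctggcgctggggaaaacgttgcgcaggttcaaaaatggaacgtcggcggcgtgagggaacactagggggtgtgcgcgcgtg
Mtf2, upstream start, chr5:108065424-108065673, plus strand: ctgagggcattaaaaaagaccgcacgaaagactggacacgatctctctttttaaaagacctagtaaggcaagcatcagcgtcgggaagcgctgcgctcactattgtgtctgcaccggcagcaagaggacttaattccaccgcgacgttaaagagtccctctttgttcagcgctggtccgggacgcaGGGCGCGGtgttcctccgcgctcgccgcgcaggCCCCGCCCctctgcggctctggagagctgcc
Mtf2, internal start, chr5:108077915-108078164, plus strand: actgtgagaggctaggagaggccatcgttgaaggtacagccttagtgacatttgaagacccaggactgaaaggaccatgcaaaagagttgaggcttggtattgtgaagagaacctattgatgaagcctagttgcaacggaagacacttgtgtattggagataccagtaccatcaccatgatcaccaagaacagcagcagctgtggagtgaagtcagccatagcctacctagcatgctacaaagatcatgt

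The upstream Kdm2b sequence, open in 7 libraries, holds 27 CG dinucleotides and 2 motif matches, and the internal one, open in all 10, holds 36 and 4. The Cbx7 sequence holds 23 and 2, and the upstream Mtf2 sequence 23 and 2. The internal Mtf2 sequence, without a peak in any library, holds 2 CG dinucleotides and 0 matches. The other window without a peak, at the further Kdm2b start and not printed, holds 12 and 1. Among the windows open in all 10 libraries, that of Eed holds 12 and 3 and that of Ezh2 23 and 0. Over 32536 distinct promoters of the table the median was 6 CG dinucleotides, and 46.2% held the motif. The 10 windows with a peak in every library held between 8 and 38 CG dinucleotides, and 11 of the 13 windows held the motif. The windows are not all separate: 2 overlapping ones lie at the internal Kdm2b start, and 2 of Jarid2 lie in 1 region. The GC box GGGCGG, searched on both strands, can overlap the KLF-type motif. It is in each of the 5 printed sequences but the internal Mtf2 one, and in 33% of all promoters. The windows of Eed, Ezh2 and Phc1, open in all 10 libraries, do not hold it, nor does that of the further Kdm2b start. A motif match is a string of letters and does not show binding.

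Regions were counted in 4 patterns of opening. A region was constant with a peak in all 10 libraries, gained with peaks in both ESC libraries and no MEF library, lost in the opposite case, and transient with peaks in both libraries of at least 1 reprogramming stage and none in MEF or ESC. At the 10 genes 18 regions were constant (12.6%, against 7.35% of all regions), 31 gained (21.7%, against 15.9%), 5 lost (3.5%, against 11.1%) and 13 transient (9.09%, against 9.61%). A single region was open in both libraries of MEF and of ESC without being constant (1.85% of all), and 75 had another pattern (52.4%, against 54.1%). A peak in a single library made up 53 regions, 37.1%, against 37.9% of all regions. Single regions were not tested, so these are counts without p-values.

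**Figure D1:**
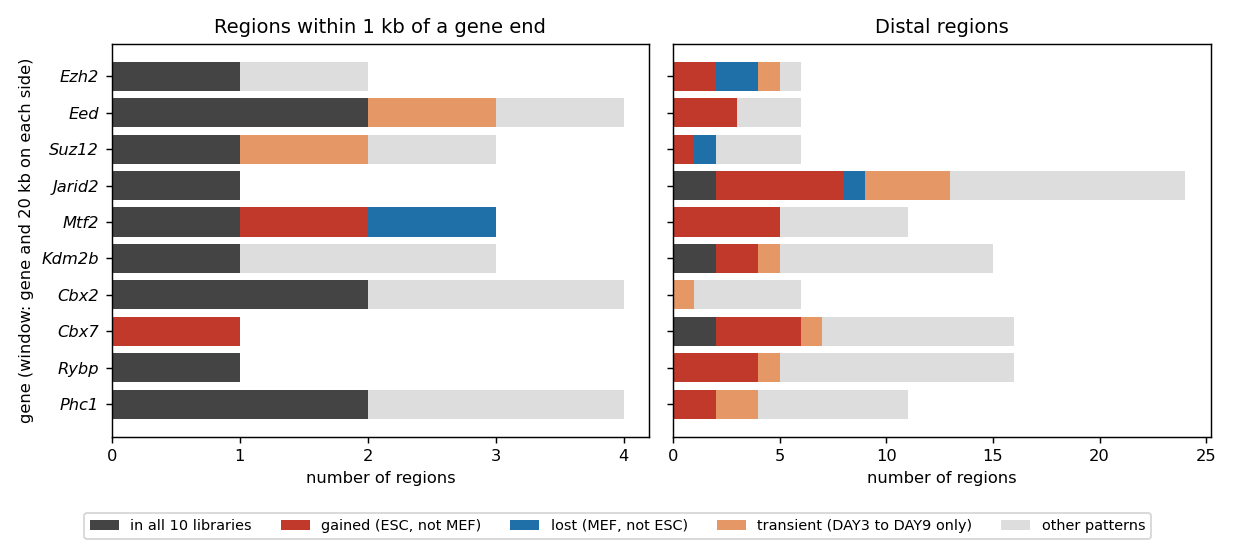
Number of merged regions in the window of each gene (gene and 20 kb on each side), by pattern over the 10 libraries, with regions within 1 kb of a gene end on the left and distal regions on the right. Constant regions make up 12 of 26 regions at gene ends and 6 of 117 distal regions, and Cbx7 has no constant region at a gene end.

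Constant opening lay mostly at gene ends. Of the 26 regions at gene ends, 12 were constant (46.2%, against 33% of all regions at gene ends), 2 gained (12.6% of all), 1 lost (6.31% of all) and 2 transient (5.76% of all). Of the 117 distal regions, 6 were constant (5.13%, against 2.56% of all distal regions), 29 gained (24.8%, against 16.5%), 4 lost (3.42%, against 12%) and 11 transient (9.4%, against 10.3%). The distal share gained was thus above that of all distal regions and the share lost below it, and neither difference was tested. The gene-end rule uses the outermost ends of a gene, so the internal starts of Kdm2b and Cbx7 are among the 6 constant distal regions. With every list cut to the 45497 peaks of the highest score, 15 of 66 distal regions were gained (22.7%, against 13.7%), 2 lost (3.03%, against 14.2%) and 11 transient (16.7%, against 15.4%).

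A constant region lay at an own end of 8 of the 10 genes, against 50.3% of 21887 protein-coding genes. Kdm2b and Cbx7 were the exceptions. Counted by stage, both libraries had a peak at an own end of 8 of the 10 genes in MEF and of 9 at each later stage, against 56.4% of protein-coding genes in MEF, 55.7% in DAY3, 60.3% in DAY6, 63.9% in DAY9 and 62.8% in ESC. None of the 10 had a region lost at an own end, against 4.01%. Among these constant starts Suz12 had the highest median of the authors' fold, the enrichment of the peak summit over its local background (median 12.9, range 8.45 to 16.2), at chr11:79992346-79993735. Mtf2 had a median of 12.3 (7.72 to 16.5) at chr5:108065298-108066483 and Ezh2 of 10.2 (9.05 to 12.4) at chr6:47594071-47595798. The start of Eed had a median of 8.35 (6.33 to 10.3, chr7:89980024-89981653), Cbx2 of 7.68 (4.5 to 10.4, chr11:119022668-119023991) and Rybp of 7.31 (6.33 to 10.5, chr6:100286461-100288325). Jarid2 had a median of 6.86 (5.81 to 8.91, chr13:44730020-44731483), in 1 region that holds both of its table starts, and Phc1 of 5.49 (4.07 to 7.71, chr6:122339162-122341558). Folds depend on the depth of a list, so they rank peaks within a list only. Within lists the Ezh2 start was above that of Suz12 in MEF replicate 2 (9.36 against 8.45). The Mtf2 start was above it in DAY3 replicate 2 (11.7 against 11.2), DAY6 replicate 2 (14.3 against 13.6) and DAY9 replicate 2 (16.5 against 14.6). In DAY3 replicate 1 and DAY6 replicate 1 the rounded folds of Mtf2 and Suz12 were equal (10 and 12.8). Among the constant regions of these lists Mtf2 ranked slightly higher (80.3 against 80.1 percentile, and 79.9 against 79.4). Both starts had the same rounded fold and percentile in DAY9 replicate 1 (16.2 and 90.7). In the remaining lists neither Ezh2 nor Mtf2 was above Suz12.

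Ranked by fold within each list among the 15359 constant regions of the genome, the Suz12 start stayed between the 77.3 and 90.7 percentile. The Phc1 start lay at the 33.7 and 66 percentile in the MEF libraries, 27.3 and 29.9 at DAY3, 9.48 and 16.9 at DAY6, 17.2 and 13.5 at DAY9, and 6.71 and 9.59 at ESC. Both ESC values of Phc1 were below every MEF value, and the DAY3 values were below both MEF values too. ESC also lay below MEF at the starts of Jarid2 (34.4 and 33.8, against 45 and 56.4) and Mtf2 (63.6 and 56.4, against 78.3 and 72.1). The same held for Rybp (29.7 and 45.8, against 59.5 and 57.5). At the starts of Ezh2, Eed, Suz12 and Cbx2 the ESC and MEF values overlapped.

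Kdm2b and Cbx7, which encode the CpG-island reader of variant PRC1 and a methyl-lysine reader of canonical PRC1, shared a layout: a constant region at a start inside the gene and a stage-dependent region at the upstream end. At the internal Kdm2b start, 88.9 kb into the gene (chr5:122899730-122900980), the fold was 9.22 and 7.91 at MEF, 9.48 and 8.68 at DAY3, 12.2 and 14.9 at DAY6, 14.3 and 14.9 at DAY9, and 9.4 and 9.31 at ESC. At the upstream end (chr5:122988878-122989662) no MEF library had a peak, and the fold was 4.28 and 3.55 at DAY3, 7.24 and 5.81 at DAY6, 6.93 and 5.65 at DAY9, and 3.79 in ESC replicate 1, with no peak in ESC replicate 2. The upstream end was therefore open in all 6 reprogramming libraries and in 1 of 2 ESC libraries. In lists of equal length the ESC peak dropped out and the region counted as transient. Another gene, A930024E05Rik, has an end in the same region, and peaks carry no strand.

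At the internal Cbx7 start, 38.5 kb into the gene (chr15:79932212-79933122), the fold was 5.39 and 3.79 at MEF, 4.83 and 4.68 at DAY3, 6.24 and 5.17 at DAY6, 5.79 and 5.56 at DAY9, and 3.95 and 4.5 at ESC. When a peak had to cover at least 50% of a region, this region no longer counted as constant but as gained. The region at the upstream gene end (chr15:79970762-79971472), which overlaps no table start, had peaks in the ESC libraries alone, with a fold of 8.7 and 11.1. No MEF, DAY3, DAY6 or DAY9 library had a peak there, and the region stayed gained in lists of equal length. A region gained at an own gene end was seen for 1 of the 10 genes, Cbx7, against 9.78% of protein-coding genes. Mtf2 has a second table start, inside the gene, and no library had a peak on it. An ESC-only region (chr5:108076190-108077671) ended just upstream of that window.

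**Figure D2:**
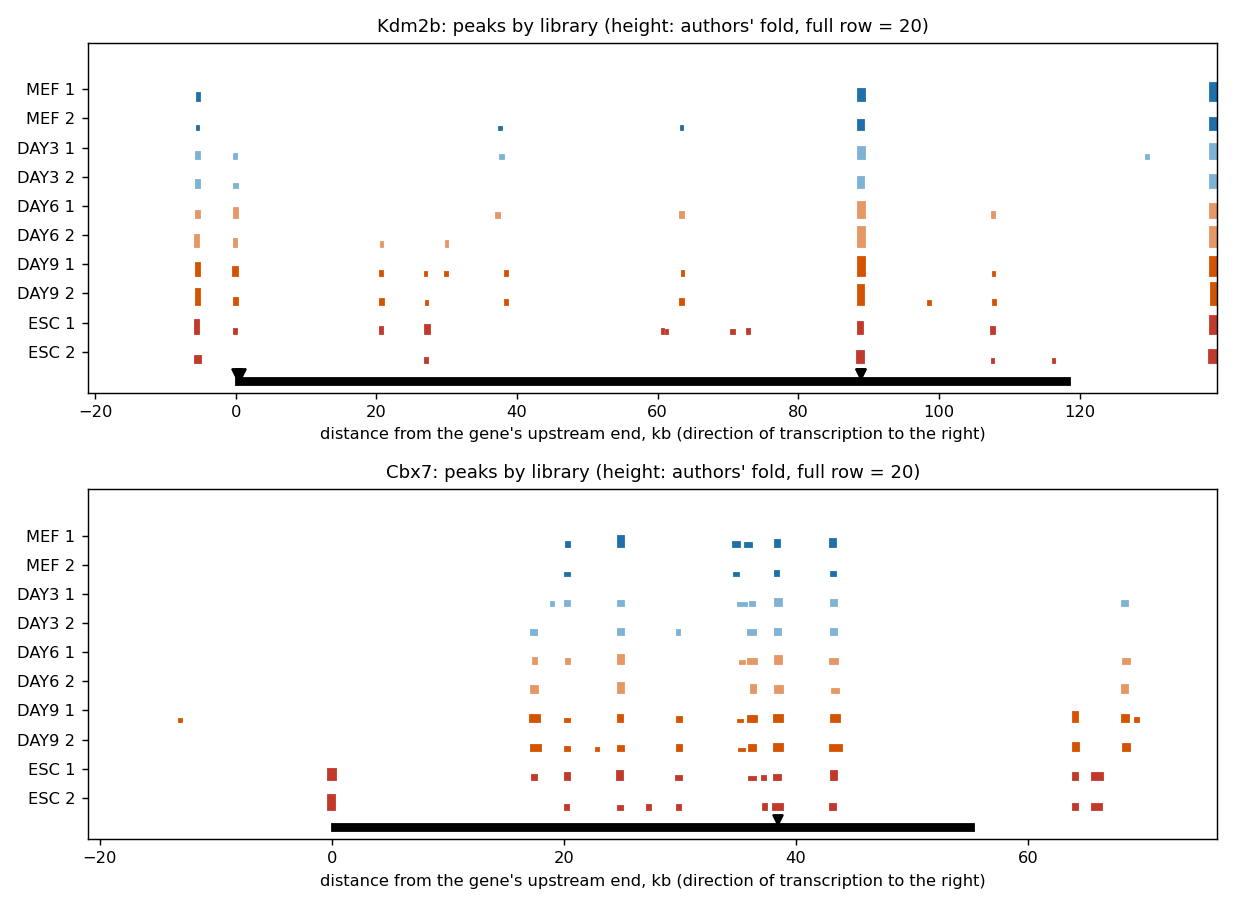
Peaks of each library over Kdm2b (top) and Cbx7 (bottom); the horizontal axis is the distance from the upstream end of the gene in kb, the black bar is the gene, triangles are RefSeq table starts, and the height of a peak is the authors' fold with a full row at 20. Peaks at 88.9 kb in Kdm2b and 38.5 kb in Cbx7 are in all 10 libraries. The peak at 0 is missing in both MEF libraries and ESC replicate 2 of Kdm2b, and in every library but the ESC pair of Cbx7.

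Among the core PRC2 genes, Ezh2, the methyltransferase, had regions lost inside the gene and regions gained upstream of it. Its lost regions, 62.6 and 35.5 kb downstream of the start, had a fold of 4.08 and 2.79 and of 4.53 and 3.54 in the MEF libraries and no peak elsewhere. Its gained regions lay 6.9 kb upstream (chr6:47601911-47602393, ESC fold 5.58 and 5.11) and 13.2 kb upstream (chr6:47608168-47608695, ESC fold 11.8 and 7.28), and neither had a peak before ESC. Between them and the start, a transient region 4.8 kb upstream was open in DAY6 (4.58 and 4.11) and DAY9 (3.21 and 2.95) alone. A region at an end of the neighbour Cul1 had a peak in DAY9 replicate 1 alone (2.64). Neither lost region of Ezh2 was lost in lists of equal length, where 1 had a peak in a single library and the other had none.

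Eed, the subunit that binds the methylated lysine, had 3 gained distal regions, all open in ESC alone. The region 5.2 kb into the gene (chr7:89975495-89976032) had an ESC fold of 12.2 and 8.44, the one at 23.6 kb of 6.39 and 4.58, and the one at 31.4 kb, beyond the gene, of 8.12 and 2.68. No distal region of Eed was lost or transient. The downstream end of Eed had a peak in DAY6 replicate 2 (3.91) and ESC replicate 2 (2.45) alone. A transient region lay at the end of its neighbour Hikeshi (chr7:89939766-89940437), with a fold of 3.83 and 3.17 at DAY3, 3.65 and 2.96 at DAY6 and 8.42 and 7.04 at DAY9. It sits beside a constant region at the same gene end, whose fold lay between 6.76 and 13.9.

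Suz12, the scaffold subunit, had 1 gained distal region, 16.2 kb upstream (ESC fold 5.36 and 4.26), and 1 lost, 57.2 kb downstream of the start and beyond the gene (MEF fold 5.66 and 4.83). A transient region 19.8 kb upstream, at an end of the gene model Gm30875 (chr11:79972612-79973901), had a fold of 5.62 and 6.52 at DAY3, 6.55 and 5.96 at DAY6 and 11.6 and 9.52 at DAY9. All 6 reprogramming libraries had this peak and no MEF or ESC library did. A second region beside it had a peak in ESC replicate 2 alone (3.41).

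Jarid2, a PRC2 accessory subunit that is itself highly expressed in embryonic stem cells, had the most regions, 25 in a window of 230.9 kb. A distal region 139.0 kb into the gene (chr13:44869427-44870161) was constant, with a fold of 17.6 to 27.8, and ranked between the 94.6 and 99.4 percentile of all constant regions. Its fold was above that of the Jarid2 start in every library. A second constant distal region, 3.0 kb into the gene, had a fold of 3.19 to 6.56.

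The gained regions of Jarid2 opened at different times. The region 21.1 kb into the gene (chr13:44751535-44752235) had no MEF peak and a fold of 6.37 and 6.34 at DAY3, 13.8 and 10.1 at DAY6, 12.4 and 13.1 at DAY9 and 6.91 and 6.44 at ESC. The region 8.4 kb upstream (chr13:44721980-44722759) had a peak in DAY3 replicate 1 alone (3.81), then 7.86 and 10.4 at DAY6, 10.6 and 13.4 at DAY9 and 10.3 and 5.57 at ESC. The other gained regions were ESC regions of low fold, such as that 18.7 kb upstream (ESC 3.98 and 3.51, with 2.87 in DAY9 replicate 2) and that at 172.3 kb (4.24 and 3.25). Inside the gene 4 transient regions opened before DAY9. The one at 12.4 kb had a fold of 3.01 and 2.97 at DAY3, 3.37 and 4.51 at DAY6 and 11.4 and 6.81 at DAY9. The one at 161.8 kb had 6.03 and 3.99 at DAY3, 3.37 in DAY6 replicate 1 alone, and 9.13 and 7.05 at DAY9. The regions at 67.6 and 109.5 kb had peaks in both DAY6 libraries (6.51 and 3.91, and 5.39 and 4.81) and both DAY9 libraries (3.72 and 4.54, and 3 and 4.06), and in 1 DAY3 library each (3.67 and 3.17). A region at 40.4 kb was lost, with a MEF fold of 4.76 and 2.9.

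Mtf2, an accessory subunit that binds CpG-rich DNA, had 5 distal gained regions and no distal region that was lost or transient. The region 5.1 kb upstream (chr5:108060258-108060948) had an ESC fold of 10.2 and 7.92, the one at 11.3 kb of 9.68 and 6.28, and the one at 38.8 kb of 5.11 and 3.41, each with no peak before ESC. The region at 32.1 kb (chr5:108097336-108098149) opened in DAY6 (4.94 and 5.11), stayed open in DAY9 (5.04 and 5.49) and had a fold of 9.26 and 5.43 at ESC. At the ends of the neighbour Tmed5 1 region was gained (ESC 4.91 and 6.31) and 1 was lost (MEF 4.98 and 6.44).

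Among the PRC1 genes, Kdm2b had 2 gained distal regions, both open from DAY9. The one at 27.3 kb had a fold of 2.76 and 2.99 at DAY9 and 6.91 and 4.03 at ESC, and the one at 107.8 kb of 3.12 and 4.18 at DAY9 and 5.58 and 3.1 at ESC, with 4.04 in DAY6 replicate 1. A transient region at 38.5 kb was open in DAY9 alone (3.48 and 3.7). A distal region 5.4 kb upstream of the gene (chr5:122994254-122995123) was constant, with a fold of 3.43 to 12, and counted as gained when a peak had to cover at least 50% of the region. A region at the ends of the neighbours Rnf34 and Gm33044 was constant too (9.56 to 16.6), and one at an end of Gm33118 had a peak in MEF replicate 2, DAY3 replicate 1 and DAY6 replicate 1 (2.68, 3.01 and 3.37).

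Cbx2 had no gained and no lost region. Its 1 transient region, 17.9 kb upstream, was open in DAY9 (3.06 and 3.52) and in DAY6 replicate 2 (3.96). The neighbouring PRC1 gene Cbx8 had a constant region at its end, 18.1 kb downstream of the Cbx2 start, with a fold of 5.91 to 12.8, and at its other end a peak in ESC replicate 2 alone (2.69). An end of the gene model Gm35829 had a peak in MEF replicate 2 alone (2.57). For Cbx2 and Rybp, which the promoter table does not match, distances are counted from the gene end that lies in a constant region.

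Cbx7 had 4 gained distal regions and no lost one. Those at 64.1 kb (DAY9 7.49 and 6.1, ESC 5.39 and 4.16) and 30.0 kb (DAY9 3.6 and 4.54, ESC 3.37 and 3.19) were open from DAY9, the latter with 3.67 in DAY3 replicate 2 as well. Those at 66.0 kb (5.71 and 4.12) and 37.3 kb (3.25 and 4.14) were open in ESC alone. A transient region at 68.5 kb had a fold of 4.04 and 6.32 at DAY6 and 5.41 and 5.8 at DAY9, and 3.33 in DAY3 replicate 1. A second constant distal region lay at 43.5 kb, with a fold of 3.25 to 6.97.

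Rybp, which marks variant PRC1, had 4 gained distal regions. The region 74.3 kb from the start and beyond the gene (chr6:100212676-100213386) opened in DAY6 (7.86 and 5.71) and had a fold of 4.28 and 3.77 at DAY9 and 3.07 and 3.33 at ESC. Those at 73.6 kb (3.59 and 3.37) and 63.7 kb (5.31 and 3.43) were open in ESC alone, and that at 16.3 kb in ESC (5.09 and 7.46) and DAY9 replicate 2 (3.82). A transient region 10.5 kb upstream was open in DAY9 alone (3 and 4.54).

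Phc1, the Polyhomeotic subunit, had a gained region 2.2 kb upstream of its start (chr6:122342129-122342739), with a fold of 2.22 and 2.5 at DAY3, 4.61 and 3.01 at DAY6, 2.69 and 2.61 at DAY9 and 4 and 4.19 at ESC. A further region 16.0 kb upstream (chr6:122355824-122356621) was open in ESC alone (6.47 and 6.57). Between them a transient region 6.1 kb upstream had a fold of 4.55 and 4.49 at DAY3, 3.07 and 7.54 at DAY6 and 3.71 and 4.15 at DAY9. A second transient region, 19.4 kb into the gene, was open in DAY6 (3.14 and 6.89) and DAY9 (7.56 and 7.36). All 4 of these regions kept their pattern in lists of equal length. The downstream end of Phc1, which the neighbour M6pr shares, had a peak in DAY6 replicate 1 alone (3.64), and another region at an end of M6pr was constant, with a fold of 13.8 to 18.8. A region at the end of the gene model Gm6637 had peaks in 7 libraries (3.17 to 8.37).

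**Figure D3:**
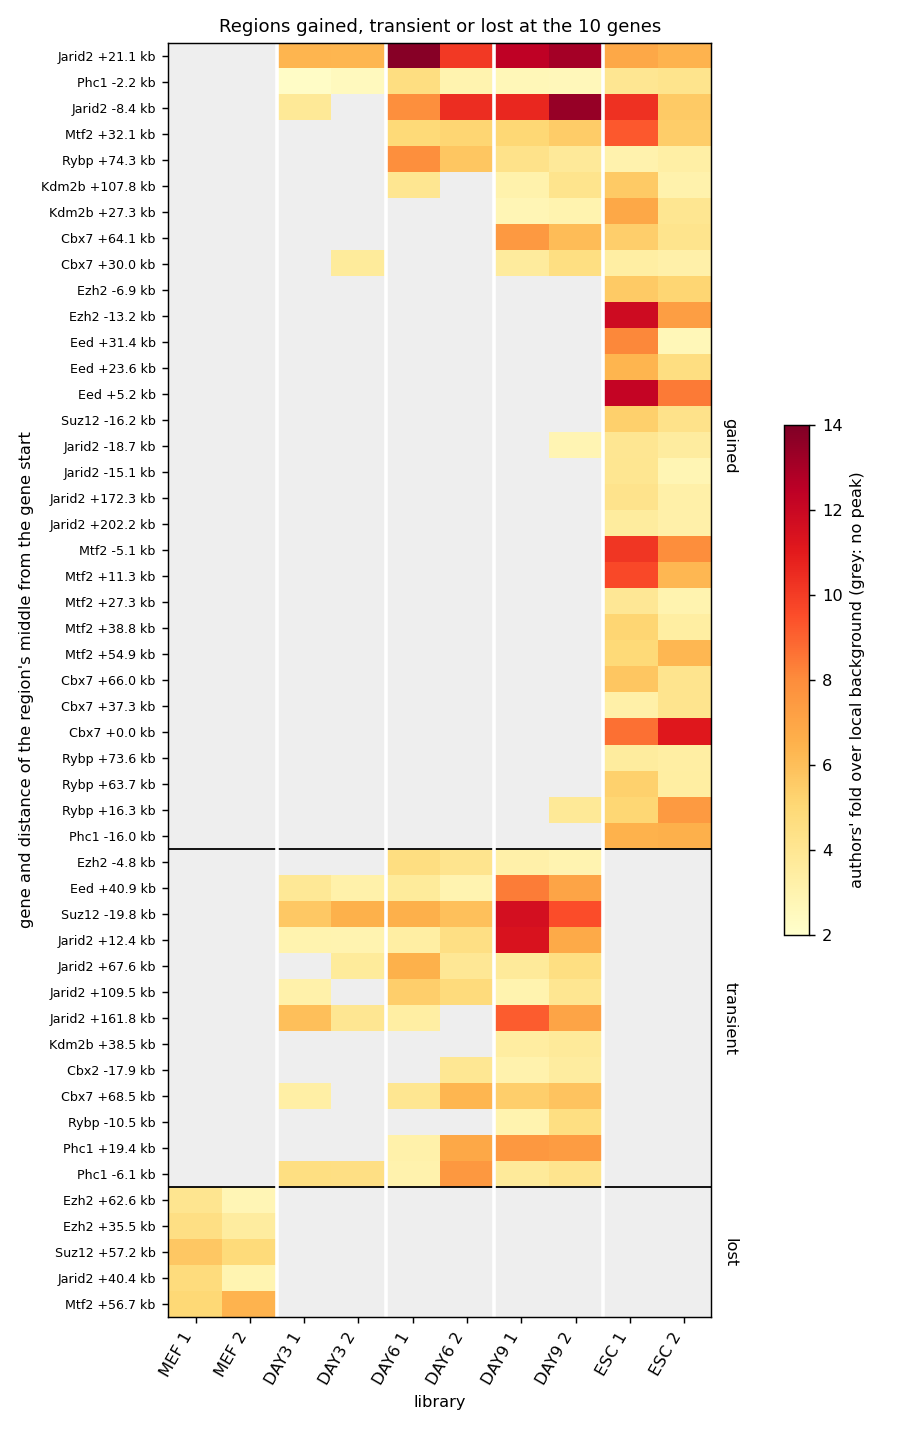
Authors' fold in each library (columns) for the 31 gained, 13 transient and 5 lost regions (rows, named by gene and the distance of the region's middle from the gene start in kb), with grey for no peak and the colour scale ending at 14. Most gained rows are coloured in the ESC columns alone, both Jarid2 and Phc1 have a row open from DAY3, and every transient row is coloured in both DAY9 columns.

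Most gained distal regions had peaks in both libraries for the first time in ESC. Of the 29, 2 first had them in DAY3 (6.9%, against 8.52% of all gained distal regions), 3 at DAY6 (10.3%, against 14%), 4 at DAY9 (13.8%, against 15.1%) and 20 at ESC (69%, against 62.4%). All 4 lost distal regions had no peak from DAY3 on, as had 80% of all lost distal regions. All 11 transient distal regions were open in both DAY9 libraries, against 79.9% of all, 7 in both DAY6 libraries (44.1% of all) and 3 in both DAY3 libraries (35.3% of all). Between neighbouring stages, 5 distal regions were gained and 5 lost from MEF to DAY3 (5.78% and 11.1% of all distal regions), 4 and 0 from DAY3 to DAY6 (5.31% and 1.59%), 5 and 1 from DAY6 to DAY9 (5.58% and 1.03%), and 19 and 12 from DAY9 to ESC (9.72% and 9.81%). Distal regions with peaks in both libraries of a stage numbered 14 of 117 for MEF, 16 for DAY3, 27 for DAY6, 39 for DAY9 and 42 for ESC, which is 12%, 13.7%, 23.1%, 33.3% and 35.9%. Over all distal regions the shares were 17.9%, 12.3%, 16.8%, 26.1% and 23.4%. In lists of equal length no gained distal region of Suz12, Kdm2b or Rybp kept its pattern. Of the gained distal regions, 13 lay inside their gene, 9 upstream and 7 downstream. The gained distal regions had a median width of 538 bp, against 688 bp for all.

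To test whether a whole gene window changed, the base pairs under peaks in the window were divided by the Mb under peaks in the library, which gives an open share. Log2 open shares per kb of window, with a pseudocount of 0.231, were fitted with limma over 20115 protein-coding genes, and p-values were adjusted over all of them by the Benjamini-Hochberg method. All 10 genes passed the filter of an open window in at least 2 samples. The pair of DAY3 libraries and the pair of DAY9 libraries were each averaged and counted as 1 sample, because their summit heights were nearly as close as repeated counts of 1 library would be. This left 8 samples.

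In ESC against MEF 4 of the 10 windows were higher at an adjusted p under 0.05, Mtf2, Cbx7, Phc1 and Eed, and 0 were lower. Over all genes 11.5% of windows were higher and 11.6% lower, so 49.9% of the called windows were higher. Without scaling to the library that share was 82% and the median log2 difference of all genes 0.23 in place of -0.07, and on the number of peaks the share was 60.5%. All 4 genes passed without the scaling as well, and Rybp did too (log2 difference 0.78, adjusted p = 0.0355). The open share of Mtf2 was 47 and 31.1 bp per Mb in MEF, 43.4 and 56.5 at DAY3, 69.1 and 50.1 at DAY6, 41.1 and 42.2 at DAY9, and 120 and 124 at ESC. The ESC libraries stood apart from all others. The fitted difference between ESC and MEF was 1.29 on the log2 scale, or 2.45-fold (SE 0.21, adjusted p = 0.0123).

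The open share of Phc1 was 67.9 and 66.3 bp per Mb in MEF, 123 and 129 at DAY3, 132 and 141 at DAY6, 108 and 97 at DAY9, and 110 and 118 at ESC. Every later library was above both MEF libraries. Before scaling to the library the difference from DAY3 was smaller, with 2961 and 2196 bp under peaks in MEF and 3406 and 3563 at DAY3. The log2 difference between ESC and MEF was 0.65, or 1.57-fold (SE 0.12, adjusted p = 0.0158).

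For Eed the open share was 66.5 and 65.1 bp per Mb in MEF, 128 and 111 at DAY3, 89.9 and 110 at DAY6, 89.6 and 78.2 at DAY9, and 102 and 106 at ESC. The MEF libraries were again the lowest. Before scaling to the library the difference from DAY3 was smaller, with 2899 and 2157 bp under peaks in MEF and 3557 and 3071 at DAY3. The log2 difference between ESC and MEF was 0.56, or 1.47-fold (SE 0.14, adjusted p = 0.0369).

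For Cbx7 it was 70.6 and 51.6 bp per Mb in MEF, 145 and 111 at DAY3, 110 and 101 at DAY6, 141 and 141 at DAY9, and 123 and 96.6 at ESC. MEF lay below all other stages without overlap. Before scaling to the library the base pairs under peaks were 3081 and 1709 in MEF and 4010 and 3082 at DAY3. MEF replicate 1 and DAY3 replicate 2 were thus nearly equal in base pairs, while their lists covered 43.6 and 27.7 Mb. The log2 difference between ESC and MEF was 0.67, or 1.59-fold (SE 0.18, adjusted p = 0.0477).

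The other 6 windows did not pass in ESC against MEF. The log2 differences were 0.52 for Kdm2b (adjusted p = 0.191), 0.44 for Rybp (0.103), 0.27 for Jarid2 (0.354), -0.13 for Cbx2 (0.635), -0.18 for Ezh2 (0.47) and -0.28 for Suz12 (0.433). The median over the 10 genes was 0.48 and over all genes -0.07. These calls depended on each MEF and ESC library. Without MEF replicate 2, ESC replicate 1 or ESC replicate 2 none of the 4 passed, although their log2 differences stayed between 0.5 and 1.31. Without MEF replicate 1 or either DAY6 library 2 passed, Mtf2 and Phc1. With windows of 10 kb on each side Mtf2 alone passed, with adjusted p-values of 0.213 for Eed, 0.138 for Cbx7 and 0.0601 for Phc1. The Phc1 call failed with lists of equal length (adjusted p = 0.0573), and the Mtf2 call on the number of peaks (0.0702). The Cbx7 call also failed with windows of 50 kb (adjusted p = 0.0745), with no filter (0.0762), with a smaller pseudocount (0.0526) and on the number of peaks (0.088).

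No window of the 10 passed between neighbouring stages in limma's test. From MEF to DAY3, 4 had an unadjusted p under 0.05, all higher, Eed, Jarid2, Cbx7 and Phc1, with log2 differences of 0.73, 0.78, 0.85 and 0.78 and adjusted p-values of 0.0892, 0.139, 0.109 and 0.0635. Over all genes 1.45% passed in that step, and 14.4% were higher at an unadjusted p under 0.05. Without scaling to the library 0 genes passed, and the median log2 difference of all genes was -0.16 in place of 0.11. With the 10 libraries counted separately Eed, Jarid2, Cbx7 and Phc1 passed, and 4600 genes did so in place of 291. From DAY3 to DAY6 0% of all genes passed, and 0 of the 10 had an unadjusted p under 0.05, as had 11.6% of all genes. From DAY6 to DAY9 0% passed as well, and 1 of the 10 had an unadjusted p under 0.05, against 3.87% of all genes. This was Phc1, with a log2 difference of -0.37. From DAY9 to ESC 2.44% passed over all genes. There 1 of the 10, Mtf2, had an unadjusted p under 0.05 (log2 difference 1.21, adjusted p = 0.0753), against 21.4% of all genes in either direction and 7.74% higher, so the share of the 10 was near that of all genes.

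**Figure D4:**
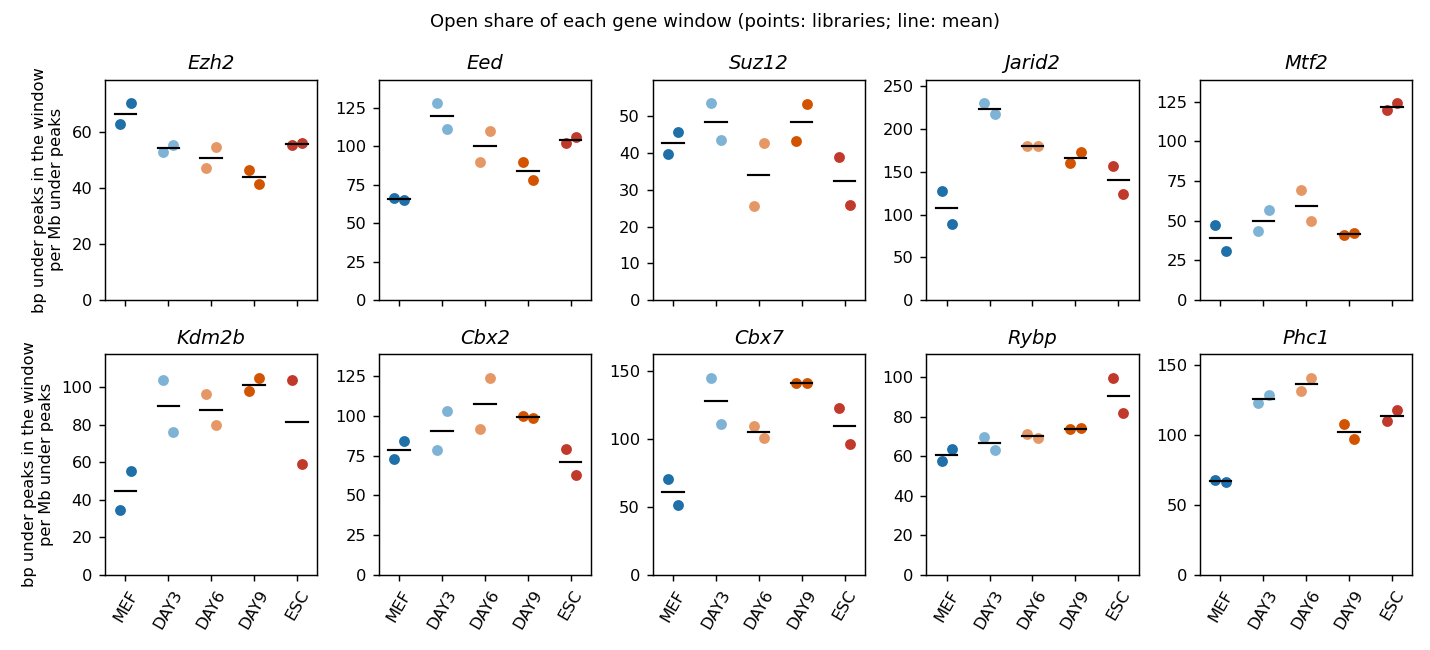
Open share of each gene window, in bp under peaks per Mb under peaks of the library, for the 2 libraries of each stage (points) and their mean (line); vertical axes start at 0 and differ between genes. The ESC points of Mtf2 (120 and 124) lie above all its others, and a MEF point is the lowest of the panel for Eed, Jarid2, Mtf2, Kdm2b, Cbx7, Rybp and Phc1.

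The windows whose log2 open share ran most like that of Mtf2 over the 8 samples, among genes over 1 Mb away, were Grm5 (Pearson r 0.979), Rfc3 (0.976) and C9orf72 (0.972). Those most like Cbx7 were Siglec1 (0.981), Fnbp1l (0.98) and Kcnk13 (0.973). These genes were picked as the highest of 20115, and the 8 samples share their stages, so the values only describe likeness.

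A wider list of 35 other genes of the Polycomb system was counted in the same way. A constant region lay at an own end of 31 of the 35, against 50.3% of protein-coding genes, which includes 6 of 7 other PRC2 genes, 18 of 20 other PRC1 genes, 6 of 6 genes of the H2A deubiquitinase and 1 of 2 H3K27 demethylase genes. In ESC against MEF 1 of the 35 windows was higher and 5 were lower, beside 11.5% and 11.6% of all genes, with a median log2 difference of -0.16. The higher one was Rnf2, a catalytic subunit of PRC1 (log2 difference 1.38, SE 0.16, adjusted p = 0.00537). Its paralog Ring1 was lower (-0.78, SE 0.14, adjusted p = 0.015), as were the Phc1 paralog Phc2 (-0.89, adjusted p = 0.0166), the Mtf2 paralog Phf1 (-0.87, adjusted p = 0.0246), the histone-binding subunit gene Rbbp4 (-0.68, adjusted p = 0.0386) and the demethylase gene Kdm6b (-0.71, adjusted p = 0.0193). Without scaling to the library 4 of the 35 were higher and 1 was lower, and on the number of peaks 2 and 1. In both cases the lower one was Phf1. With lists of equal length 1 was higher and 3 were lower, and Rbbp4 alone of the 5 was among them. Rnf2 passed in each alternative but those without ESC replicate 1 (adjusted p = 0.0504) or ESC replicate 2 (0.0645). Of the 5 lower genes none passed without MEF replicate 2 or ESC replicate 2, Kdm6b alone without ESC replicate 1, and Ring1 alone without either DAY6 library. These alternatives were chosen after seeing the data. A distal gained region lay in the window of 9 of the 10 genes and of 21 of the 35, against 50% of protein-coding genes. A distal lost region lay in 3 of the 10 and 15 of the 35, against 37.3%. For transient distal regions the counts were 7 and 18, against 39.4%, and for constant ones 3 and 13, against 19.9%. The windows of the 10 genes were 48.3 to 230.9 kb long, and these counts were not matched for window length.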

How the data were processed

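ATAC-seq peaks were taken from 10 lists, 1 for each library. The submitters' processing notes name Bowtie2 2.3.2, MACS2 2.1.1, deepTools 2.3.6 and the build mm10, without their roles. Peak filters and read totals are not given in the sources used here. The deposited score is 10 times the −log10 p-value rounded down, and the lowest deposited −log10 p-value was 5.00 in every list. The fold, a linear ratio, is the authors' own, and where a region held several peaks of a library the one with the highest score gave it. The lists hold no summit positions.

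Peaks that overlapped by at least 1 bp were merged over the 10 lists with Python 3.11.15 and pandas 2.3.3. Gene ends, names and promoters came from RefSeq tables of GRCm38.p6, which hold no exons, so exonic and intronic positions were not analysed here. Regions were named by a rule: own gene ends, regions at the ends of neighbouring genes, and constant, gained, lost and transient distal regions, at most 4 of a class with the highest score for each gene. The genes, lists and rules were chosen with earlier results of these data known.

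Window shares were fitted with limma 3.58.1 in R 4.3.3. Summit heights recovered from the deposited fold and −log10 p-value gave a noise ratio, which is 1 for counting noise alone, of 1.33 between the DAY3 libraries and 1.42 between the DAY9 libraries. It was 5.56 for MEF, 3.61 for DAY6, 8.11 for ESC and 3.96 to 31.5 between stages. The DAY3 and DAY9 pairs therefore counted as 1 sample each, which are assumed to vary like the other groups. In simulated ESC against MEF data of 20115 genes, 17 of 100 genes changed by a log2 of 1 and 69 of 100 changed by 2 were called, with 3 other calls. The simulation held 200 changed genes, while the reported fit called 4649. The adjusted threshold therefore differs, and these shares do not give the sensitivity of the reported fit.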

Additional observations from a re-analysis of the deposited data

How the results depend on the processing

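Depth is unknown and the lists differ in length, so a missing peak may be a peak under the authors' threshold. With lists of equal length 16 regions were gained and 3 lost, and the pattern was kept by 17 of the 18 constant, 14 of the 31 gained, 2 of the 5 lost and 9 of the 13 transient ones. With windows of 10 kb on each side 3 were lost and 8 transient. With a peak in at least 1 library of a stage 65 were gained, 17 lost and 31 transient. With a gene-end distance of 2.5 kb 41 regions counted as gene ends, against 26, and with the ends of protein-coding genes alone, an alternative chosen after seeing the data, 21 did. Requiring a peak to cover 50% of a region (the summit condition could not be applied, since the lists hold no summits) left 13 constant, 29 gained, 4 lost and 13 transient regions in their pattern, and the Mtf2 and Phc1 starts were among those no longer constant. Leaving out 1 library gave 18 to 21 constant, 31 to 51 gained, 5 to 11 lost and 13 to 19 transient regions. The 51 gained came without ESC replicate 2, and the 11 lost without either MEF library, and 8 were lost without ESC replicate 1.

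Of the window calls in ESC against MEF, 1 was left with 10 kb windows, and 0 to 4 when 1 library was left out. With equal-length lists 1 window passed in ESC against DAY9. With 10 separate libraries, without a replicate block, 4 passed in DAY3 against MEF, 1 in ESC against DAY9 and 5 in ESC against MEF. With the replicate block these were 4, 1 and 5. Replicate numbers do not pair the samples: the correlation of deviations between stages with the same number ran from -0.0684 to 0.0462. Genes called in ESC against MEF, 4649 of all genes, numbered 2471 on the number of peaks, 7066 with 10 libraries, 2759 without MEF replicate 1, 1247 without MEF replicate 2, 2435 and 2482 without a DAY6 library, 950 without ESC replicate 1 and 375 without ESC replicate 2. In DAY3 against MEF, 291 in the reported fit, the count was 0 unscaled and without any 1 of the MEF, DAY6 or ESC libraries, 2 with 50 kb windows and 4600 with 10 libraries. In ESC against DAY9, 491 in the reported fit, it was 0 without any 1 of the DAY6 or ESC libraries, 165 without either MEF library, 416 with 10 kb windows and 4327 with 10 libraries. In the other 2 steps, with 0, DAY6 against DAY3 gave 1064 and DAY9 against DAY6 70 with 10 libraries, and 66 and 111 with no filter, and DAY6 against DAY3 gave 125 with the smaller pseudocount and 16 with 10 kb windows. Values not past the threshold changed sign for Ezh2 (0.12 unscaled, 0.06 with 50 kb windows, 0.26 with equal-length lists), Cbx2 (0.23 unscaled, -0.27 to 0.01 when 1 library was left out, the highest without ESC replicate 2), Suz12 (0.14 on the number of peaks), Jarid2 (-0.04 with 10 kb windows) and Rybp (-0.07 with equal-length lists). The cause of these changes was not tested.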

Other observations

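Beyond the 4 patterns, several regions missed a pattern by a single library, and those named here were chosen after their values were seen. A region 17.2 kb upstream of Eed (chr7:89997294-89999039) had peaks in every library but MEF replicate 2, with a fold of 4.44 to 6.95. A region 208.8 kb from the Jarid2 start (chr13:44939082-44940035) lacked a peak in the same MEF library, with a fold of 7.99 and 7.7 at DAY3, 11.7 and 12.1 at DAY6, 10.6 and 10.1 at DAY9 and 4.91 and 5.59 at ESC. A region 24.9 kb into Cbx7 lacked a peak in MEF replicate 2 as well, and one at 35.6 kb in ESC replicate 2 alone. At Rybp, a region 68.6 kb from the start (chr6:100218394-100219083) had a fold of 9.81 and 7.56 at MEF, 4.91 and 4.46 at DAY3, 3.37 and 3.87 at DAY6, no peak in DAY9 and 3.81 in ESC replicate 1 alone. At Mtf2, a region 13.3 kb upstream (chr5:108051877-108052773) had a fold of 4.08 in MEF replicate 1, 3 to 3.61 in the reprogramming libraries with a peak and 11.5 and 9.15 at ESC.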
